A study of Bos taurus with 40 samples.

Results

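EED and ASF1A are genes of chromatin regulation, and each was represented by 1 spot on a nylon cDNA array of bovine transcripts. EED encodes a core subunit of Polycomb repressive complex PRC2, which methylates histone H3 on a lysine and thereby helps to keep developmental genes silent. ASF1A encodes a histone chaperone that carries histones H3 and H4 to the factors that build nucleosomes. Both activities are at work when an oocyte remodels the chromatin of a transferred somatic nucleus, and PRC2 also acts in the early lineages that form the placenta. The 2 genes were taken by their probe accessions, CR552963 for EED and CR552898 for ASF1A, out of 10184 cDNA probes. The study's list of QPCR primers pairs these accessions with the genes, and the study lists both genes as differing between AI and SCNT High conceptuses. It had then selected them on array values by rank, within gene networks drawn from all its comparisons. The values of SCNT High below are therefore a description without a test. The AI arrays were not analysed here. Tests were restricted to the other 3 pairs of groups, whose arrays did not enter the comparison of AI with SCNT High. They are not wholly independent of the choice, as the 2 genes were also taken up here with earlier results of all groups known. The study also measured its selected genes by QPCR, in values not used here. Most differences that held there were weaker expression in SCNT than in AI or IVP conceptuses, with WNT5B as the exception. For SCNT High the study describes most of its differing genes as stronger and EED as weaker. Its text gives no direction for ASF1A.

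The samples were extra-embryonic tissues of single Day 18 Bos taurus conceptuses, 1 conceptus per array and 10 per group. The IVP group came from embryos produced in vitro by fertilization and the SCNT groups from somatic cell nuclear transfer with skin-ear fibroblasts of a Holstein cow. SCNT High was made from donor line 5538, SCNT Med from line 7711 and SCNT Low from line 0029. Each SCNT group thus stands for 1 animal and 1 cell line, and the line cannot be told apart from the group. The conceptuses of all 4 groups had been cultured in vitro and transferred to recipient cows. The IVP embryos had a single sire. The study states that all its SCNT conceptuses were female, while it counts 4 females among the IVP conceptuses. It reports no expression difference between the sexes among its AI and IVP controls. Sex was not modelled here, so its part in differences between SCNT and IVP cannot be told apart from that of the group. Several embryos were transferred to each recipient, and which conceptuses shared a recipient was not given in the labels.

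The QPCR primers are shown because they, with the probe accession, fix which transcript each name stands for. They are written 5′ to 3′ as the study lists them.
EED forward: caaatgcacaacgctgactca
EED reverse: tttatcgcagtcggtcccag
ASF1A forward: gagctcgggtacagccaatc
ASF1A reverse: gcggcgacttgagaaactttt

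A level is the log2 of the mean brightness of a spot minus the mean of that log2 value over all cDNA probes of the same array, so that 0 is the array mean and 1 unit is a doubling. The median brightness of the cDNA spots was between 22.9 and 162 units per array, at 4.85 to 8.99 times the local background. The deposited data give a date for each array. Arrays dated on the same or adjoining days were taken here as 1 quantification session, which gave 3 sessions. The IVP arrays fell into sessions 1 and 2 as 7 and 3, and so did the SCNT Med arrays. The SCNT High arrays fell into sessions 1, 2 and 3 as 3, 3 and 4, and the SCNT Low arrays as 3, 5 and 2. Both genes were detected in all 40 conceptuses, as on every membrane their spots outshone the spot of water. Most probes did so too, from 7735 to 9907 of the 10184 cDNA probes per array, so this bar is a low one. EED signal was 3.84 to 19.6 times its local background and ASF1A signal 5.68 to 24.0 times. The software marked the EED spot as poor on 5 arrays and the ASF1A spot on 4 arrays, all from session 3. Only the 6 arrays of that session carry such marks on any spot, so the marks do not compare spot quality between sessions. A shape regularity score was given for all arrays. For EED it was 0.64 to 0.71 on the 4 SCNT High arrays of session 3, and 0.73 and 0.82 on the SCNT Low arrays. In sessions 1 and 2 it was 0.80 or more on each array except BF188 of IVP, at 0.32.

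EED had mean levels between 2.18 and 2.33 in IVP, SCNT Med and SCNT Low and of 1.39 in SCNT High. In IVP its level ran from -0.41 to 3.07 with a median of 2.60, and its mean was 2.33 ± 1.02 (SD, n = 10). In SCNT Med it ran from -0.19 to 3.81 with a median of 2.01, for a mean of 2.26 ± 1.13 (SD, n = 10). In SCNT Low it ran from 1.01 to 3.14 with a median of 2.23, for a mean of 2.18 ± 0.68 (SD, n = 10). These 3 groups overlapped over most of their range, and their means lay closer together than the SD of any of them. In SCNT High the level ran from -0.58 to 2.48 with a median of 1.52, for a mean of 1.39 ± 0.88 (SD, n = 10). All 10 SCNT High arrays lay below the IVP median, and 9 of 10 lay below the mean of each other group. The groups still overlapped, as 9 of 10 SCNT High arrays lay above the lowest IVP array.

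ASF1A was ordered the opposite way, lowest in IVP and highest in SCNT High. In IVP its level ran from 1.21 to 2.78 with a median of 2.16, for a mean of 2.07 ± 0.54 (SD, n = 10). In SCNT Med it ran from 1.25 to 4.45 with a median of 2.31, for a mean of 2.52 ± 0.91 (SD, n = 10). In SCNT Low it ran from 1.51 to 4.01 with a median of 2.79, for a mean of 2.76 ± 0.74 (SD, n = 10). In SCNT High it ran from 2.03 to 3.70 with a median of 2.81, for a mean of 2.89 ± 0.58 (SD, n = 10). All 10 IVP arrays lay below the median of SCNT High and below the median of SCNT Low. Neighbours in this order differed by less than the SD of either group. The actin control spots had the same order, averaging 2.58 in IVP, 2.838 in SCNT Med, 2.841 in SCNT Low and 2.92 in SCNT High. The water spot also averaged lowest in IVP, at -1.92, and highest in SCNT High, at -1.64. GAPDH averaged 2.94 in IVP and 3.37 in SCNT High but was lowest in SCNT Med, at 2.58. Whether the order of ASF1A has a source in common with these controls was not tested. In these bulk samples, fewer cells that express a gene and less of its RNA per cell cannot be told apart.

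**Figure D1:**
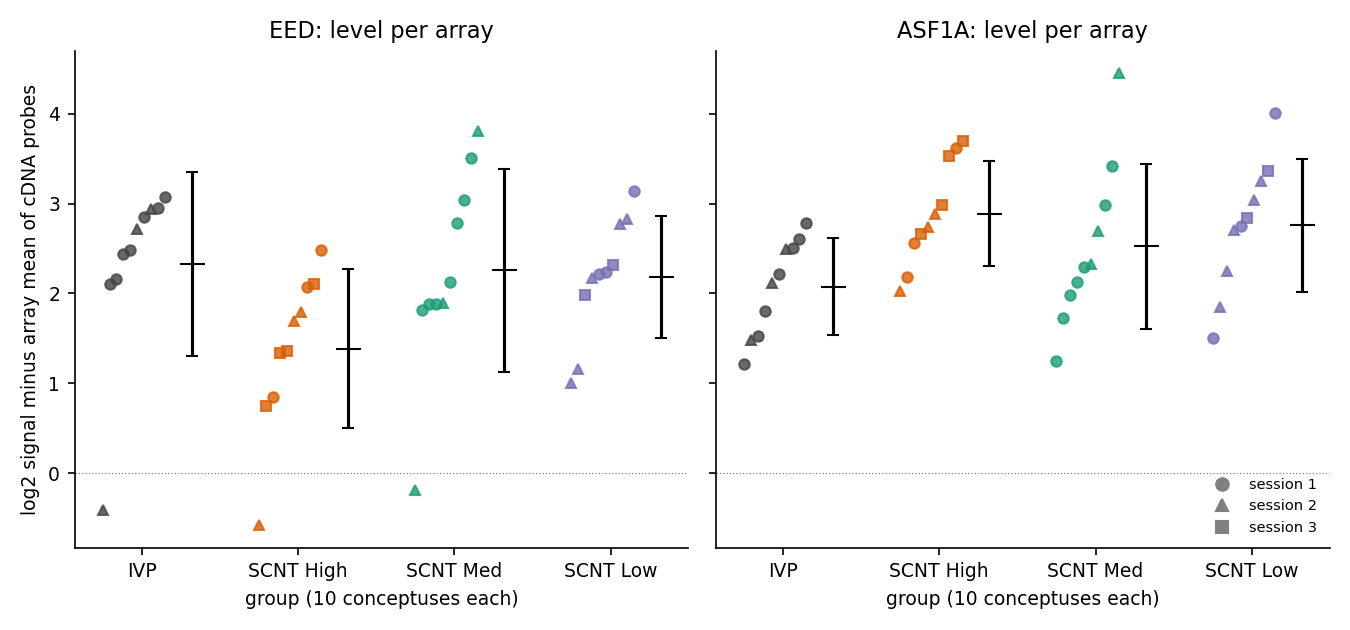
Level of EED (left) and ASF1A (right) on each of the 40 arrays, as log2 signal minus the array mean of the cDNA probes, by group. Symbols give the quantification session, and the bar beside each group is its mean ± SD (n = 10). EED is lowest in SCNT High (mean 1.39) and ASF1A lowest in IVP (mean 2.07), while 3 arrays of session 2 have EED below 0.

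Neither gene passed the test between groups in the 3 pairs without SCNT High. Differences were tested with limma across all 10184 probes, with Benjamini-Hochberg adjustment and a threshold of 0.10. EED in SCNT Med minus IVP was -0.07 (SE 0.44, 95% interval -0.97 to 0.83), with a limma adjusted p of 1.00. EED in SCNT Low minus IVP was -0.15 (SE 0.35, 95% interval -0.88 to 0.58), with a limma adjusted p of 1.00. EED in SCNT Med minus SCNT Low was 0.07 (SE 0.38, 95% interval -0.71 to 0.86), with a limma adjusted p of 0.997. The intervals leave room for a change of more than 0.5 in either direction in each pair. In these pairs 0, 0 and 0 probes of the array passed in all, 0% each. An unadjusted p under 0.05 was reached by 335 probes (3.29%) in SCNT Med against IVP, by 344 (3.38%) in SCNT Low against IVP and by 436 (4.28%) in SCNT Med against SCNT Low.

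ASF1A came closest in SCNT Low against IVP. There the difference was 0.68 (SE 0.27, 95% interval 0.12 to 1.24), which is 1.60-fold, with 8 of 10 SCNT Low arrays above the IVP mean and 5 above all IVP arrays. Its unadjusted p of 0.019 in limma became 1.00 after adjustment, so the difference did not pass. ASF1A in SCNT Med minus IVP was 0.45 (SE 0.31, 95% interval -0.20 to 1.09), with a limma adjusted p of 1.00. ASF1A in SCNT Med minus SCNT Low was -0.23 (SE 0.34, 95% interval -0.94 to 0.47), with a limma adjusted p of 0.997. The SCNT Med value leaned on 1 conceptus, BC30, which had the highest level of both genes in its group, at 4.45 for ASF1A and 3.81 for EED. Its array was also the brightest of all, with a median of 162 units over the cDNA spots and 8.99 times the local background. The part of this brightness in its levels was not tested. Without BC30, ASF1A in SCNT Med minus IVP was 0.23.

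SCNT High differed from IVP by -0.94 (SE 0.38) for EED, a ratio of 0.520, and by 0.81 (SE 0.24) for ASF1A, a ratio of 1.76. EED in SCNT High minus SCNT Med was -0.87 (SE 0.41) and in SCNT High minus SCNT Low -0.80 (SE 0.32). ASF1A in SCNT High minus SCNT Med was 0.37 (SE 0.31) and in SCNT High minus SCNT Low 0.13 (SE 0.28). The 3 differences of each gene share the SCNT High arrays on which it had been selected. For scale, 5% of all probes lay below -0.48 and 5% above 0.43 in SCNT High minus IVP, with a median of 0.01. Within session 1, EED averaged 1.80 in SCNT High and 2.58 in IVP, and within session 2 it averaged 0.97 and 1.75. Within the same sessions ASF1A averaged 2.79 and 2.55 in SCNT High against 2.09 and 2.03 in IVP. The direction of both differences was thus the same in either session, where 3 SCNT High arrays stand against 7 and 3 IVP arrays. Against SCNT Med, ASF1A in SCNT High was higher in session 1 (2.79 against 2.25) and lower in session 2 (2.55 against 3.15), and with the session as a block the difference fell to 0.06 (SE 0.36). Session 3, which held no IVP or SCNT Med array, had ASF1A means of 3.22 in SCNT High and 3.10 in SCNT Low, above those of the same groups in sessions 1 and 2. Without it, ASF1A in SCNT High minus SCNT Low was -0.004 (SE 0.35).

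**Figure D2:**
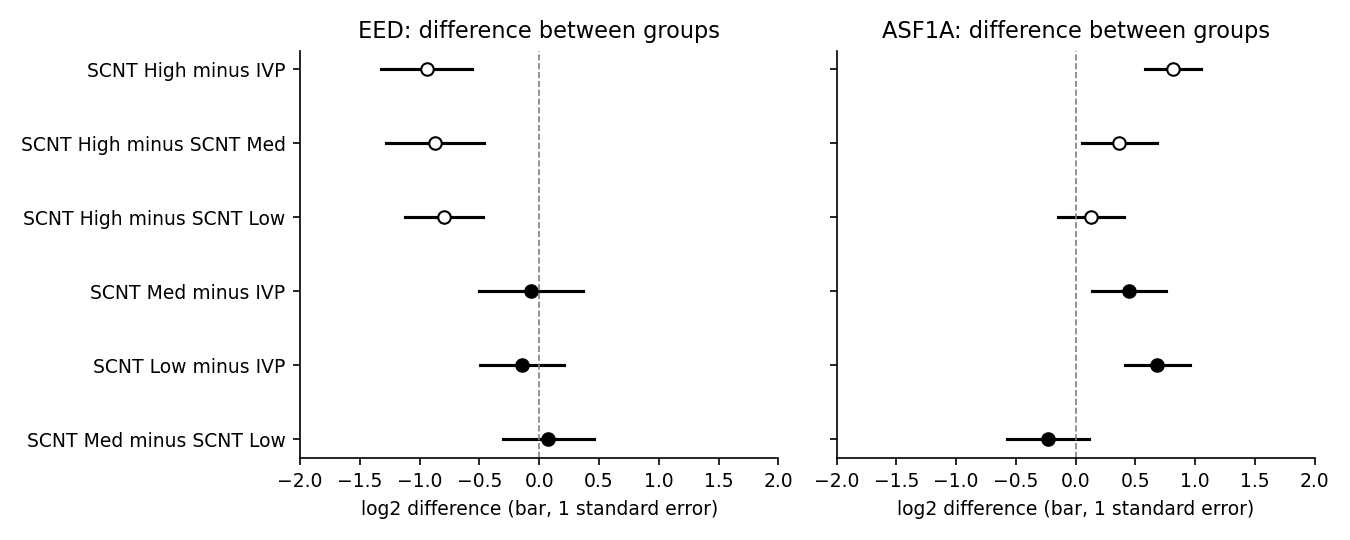
Difference between groups in log2 signal for EED (left) and ASF1A (right), with a bar of 1 standard error on each side. Filled points are the 3 tested pairs and open points the pairs with SCNT High, which are described only. EED lies between -0.94 and -0.80 in the pairs with SCNT High and within 0.15 of 0 in the others, and ASF1A is above IVP in each SCNT group.

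The level of EED varied widely between conceptuses of a group. Its pooled SD within groups was 0.94, larger than that of 96.0% of the cDNA probes, whose median SD was 0.48. The SD of ASF1A was 0.71, larger than that of 84.1% of the probes. Both spots were bright ones, with mean levels above those of 87.8% of the probes for EED and 91.2% for ASF1A. Repeated spots of 1 cDNA on the same array varied less, with a median SD of 0.32 over 10 GAPDH spots and 0.24 over 10 actin spots.

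The level of EED was below 0 on 3 arrays, all of session 2, without which its pooled SD was 0.62. These were BF190 of IVP at -0.41, BC245 of SCNT High at -0.58 and BC192 of SCNT Med at -0.19. ASF1A was at 1.48, 2.74 and 2.69 on them in the same order, which is low for its group on BF190 alone, where it was the lowest but 1 of the IVP arrays. The EED spot was still 4.98, 3.84 and 5.13 times its local background.

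The low values were shared by a few spots near EED on the membrane. The median of the spots that adjoin it was also below its group mean on each of the 3 arrays, though by less than EED. The median level of the adjoining spots was 0.10 on BF190, 0.41 on BC245 and 0.19 on BC192, against group means of 0.66, 0.77 and 0.62. Only 9 of the 10184 cDNA probes were more than 1 unit below their group mean on all 3 arrays, EED included. Of these 9, 8 lay within 10 spots of EED, an area of 439 probes, where both counts include EED itself. All 9 lay in 3 adjacent columns of the 72 of the membrane. The probe that fell most was CR552703, which lies 3 spots from EED and which the sources used here pair with no gene. Its level was 2.99 on BF190, 3.51 on BC245 and 3.45 on BC192, against group means of 6.48, 6.07 and 6.85. CR552703 was among the brightest spots, above 99.8% of the probes in mean level. The part of these spots in the low EED values was not tested. Without the 3 arrays, EED in SCNT High minus IVP was -1.03, in SCNT High minus SCNT Med -0.92 and in SCNT High minus SCNT Low -0.58. Among the other groups, SCNT Low minus IVP was then -0.45, SCNT Med minus SCNT Low 0.35 and SCNT Med minus IVP -0.10, with no test.

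CR552703 was also the probe whose pattern was most like EED over all 40 arrays. The likeness was measured as Pearson r of the deviations from the group means, which was 0.82 for CR552703 and 0.51 without the 3 low arrays. BF041656, 6 spots away, and BM362406, 2 spots away, followed with r of 0.73 each, or 0.39 and 0.42 without the 3 arrays. For comparison, 95% of all probes had an r with EED below 0.30, and 5% had one below -0.30. With the control spots EED had an r of -0.37 for GAPDH and 0.01 for actin. GAPDH averaged highest in SCNT High, at 3.37, where EED was lowest. Whether EED and GAPDH have a source of variation in common was not tested. By group, CR552703 averaged 6.85 in SCNT Med, 6.61 in SCNT Low, 6.48 in IVP and 6.07 in SCNT High, so it too was lowest in SCNT High. With its level as a covariate, EED in SCNT High minus IVP was -0.68 (SE 0.25), minus SCNT Med -0.37 (SE 0.25) and minus SCNT Low -0.44 (SE 0.25). This covariate was chosen after its values were seen. The part of CR552703 in the differences of EED was not tested beyond this.

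Spots close together on the membrane were alike in general. EED had a median r of 0.54 with its 8 neighbours, against 0.31 with the probes 2 spots away and 0.06 with those 20 spots away. ASF1A had a median r of 0.40 with its 7 neighbours and 0.22 with the probes 20 spots away. These values are not particular to the 2 genes, since the median over all probes of the same quantity was 0.53. With the median level of the neighbours as a covariate, EED in SCNT High minus IVP was -1.06 (SE 0.38) and ASF1A in SCNT High minus IVP was 0.72 (SE 0.34). The neighbours of ASF1A were themselves higher in SCNT High, where their median averaged 1.39 against 0.76 in IVP. Those of EED averaged 0.77 and 0.66. Within groups ASF1A had an r of only 0.14 with the median of its neighbours, so this covariate could take up little of a shared shift. The part of membrane position in the ASF1A difference was not tested beyond this.

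The probes most like ASF1A were CN434792 (r = 0.69), CR550353 (r = 0.66) and CR552453 (r = 0.65), which lie 2, 8 and 3 spots from it. Their r changed little without the 3 arrays with low EED, at 0.68, 0.66 and 0.67. Among the named genes, WNT5B, a secreted Wnt ligand, had an r of 0.61 with ASF1A, and its spot lies 6 spots away. WNT5B also averaged lowest in IVP, at 1.23, and highest in SCNT High, at 2.24.

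**Figure D3:**
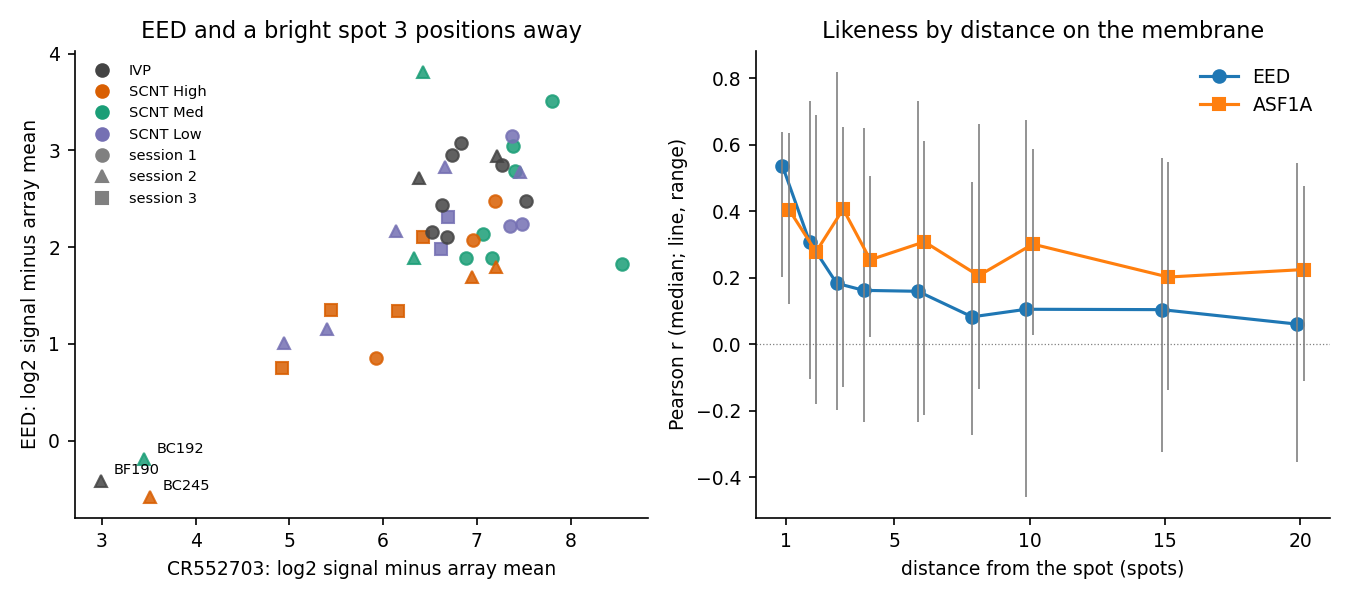
Left, the level of EED against that of CR552703, whose spot lies 3 positions away, on the 40 arrays, both as log2 signal minus the array mean, with the 3 arrays that have EED below 0 named. Right, Pearson r of EED and ASF1A with the probes at a given distance on the membrane (point, median; line, lowest to highest). The 3 named arrays are also the lowest in CR552703, at 2.99 to 3.51, and the median r of EED falls from 0.54 at 1 spot to 0.06 at 20 spots.

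No relation between EED and ASF1A within groups passed its test. Over the 40 arrays, with group means removed, Pearson r was 0.24 (two-sided permutation p = 0.170, 100000 permutations within groups) and Spearman rho was 0.25 (two-sided permutation p = 0.138). Without BC245 and BF190, which lie farthest from the median of EED, r was 0.19. With each gene adjusted for the median level of its neighbouring spots, r was 0.14 (two-sided permutation p = 0.415). For comparison, 9.16% of all probes had a higher r with EED than ASF1A did. Their spots lie 42 positions apart.

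In each of the 4 groups r was above 0, at 0.42 in IVP, 0.25 in SCNT High, 0.20 in SCNT Low and 0.17 in SCNT Med. The permutation p-values were 0.229, 0.495, 0.577 and 0.634, and each was 0.634 after Benjamini-Hochberg adjustment over the 4 groups. The corresponding rho was 0.38, 0.24, 0.13 and 0.08, with permutation p-values of 0.278, 0.516, 0.734 and 0.838, each 0.838 after adjustment. Leaving out the 2 arrays of a group farthest from its median of EED gave r of -0.06 in IVP, -0.26 in SCNT Med, 0.51 in SCNT High and 0.25 in SCNT Low, so the sign in IVP and SCNT Med rests on those arrays. By session, with group means removed, r was 0.16 over 20 arrays, 0.43 over 14 and 0.87 over the 6 arrays of session 3. The permutation p-values were 0.538, 0.281 and 0.063, or 0.538, 0.421 and 0.189 after adjustment over the 3 sessions. The rho by session was 0.17, 0.40 and 0.94, with permutation p-values of 0.511, 0.276 and 0.042, or 0.511, 0.415 and 0.125 after adjustment.

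**Figure D4:**
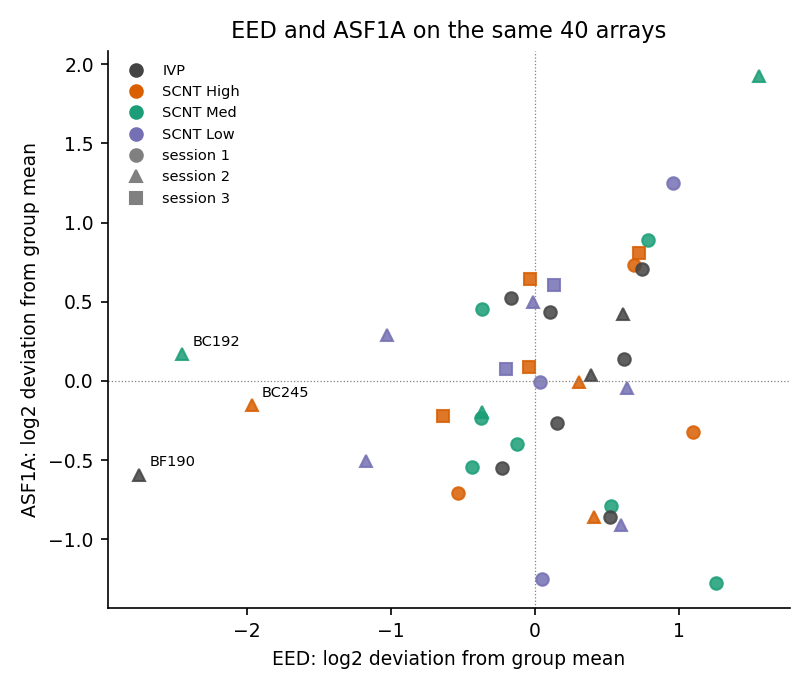
Deviation of ASF1A from its group mean against that of EED on the same array, in log2 units, for the 40 arrays, with colours for groups and symbols for quantification sessions. The 3 arrays with low EED are named and have ASF1A within 0.6 of their group means, and over all arrays r is 0.24.

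Set against each other on the same array, a difference that no centring of the array can change, EED minus ASF1A averaged 0.25 ± 0.93 in IVP, -0.27 ± 1.33 in SCNT Med, -0.57 ± 0.90 in SCNT Low and -1.50 ± 0.92 in SCNT High (SD, n = 10 each). It ran from -3.31 to -0.08 in SCNT High and from -1.90 to 1.63 in IVP. In SCNT Med it ran from -2.88 to 2.26 and in SCNT Low from -1.89 to 0.93. The lowest values in SCNT High, IVP and SCNT Med were those of BC245, BF190 and BC192, the arrays with EED below 0. As levels of different probes are not on a common scale, only the change between groups can be read from this quantity, not which transcript is more abundant. For SCNT High it carries the choice of both genes and was not tested.

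The study grouped EED and ASF1A with 4 other genes of chromatin modification or DNA repair, all picked from its own array comparisons. It ties BIN3 to the pair of SCNT Low and SCNT High, and MSH3 to the pair of AI and SCNT High. The study lists both of these among the array differences that its QPCR did not bear out. Their values in those groups therefore carry the choice, and the directions and tests below that use SCNT Low or SCNT High are not independent of it. They are MSH3, a DNA mismatch repair protein, DFFA, the inhibitor of the nuclease that cuts DNA in apoptosis, EIF2S3, a subunit of a translation initiation factor, and BIN3, a protein of the BAR domain family. In SCNT Low minus IVP all 4 had lower means, between -1.01 and -0.29 with a median of -0.50, where the median of all probes was 0.01 and none of the 4 passed the test. In SCNT Med minus IVP 3 had higher and 1 lower means, with a median of 0.29 against -0.001 for all probes and none passing. In SCNT Med minus SCNT Low 3 had higher and 1 lower means, with a median of 0.71 against -0.01 for all probes and none passing. In SCNT High minus IVP 2 had higher and 2 lower means, with a median of -0.13 against 0.01 for all probes. Of these genes, DFFA was brighter than water on only 4 of 10 SCNT High arrays and EIF2S3 on only 6 of 10 SCNT Med arrays, so their differences, and the medians that include them, rest in part on spots at background.

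The tissue holds trophoblast and endoderm, and the study also names mesoderm among its layers, for which no marker was used here. Of the genes that the study located by in situ hybridisation, FN1 and APLP2 mark endoderm and PLIN2 trophoblast. Within groups EED had an r of 0.30 with FN1, 0.29 with APLP2 and -0.26 with PLIN2, and ASF1A had an r of -0.04, 0.12 and 0.07 in the same order. FN1 ranged over group means of 1.38 to 2.69, APLP2 of -0.29 to 0.48 and PLIN2 of -0.74 to 0.09, each lowest in SCNT Low. APLP2 and PLIN2 were each below the water spot on 1 SCNT High array. The part of tissue make-up in the values of EED and ASF1A was not tested.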

How the data were processed

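RNA of extra-embryonic tissue from 40 conceptuses was amplified, labelled with 33P and hybridised by the authors to nylon membranes, 1 per conceptus. The authors deposited for each spot the intensity of its pixels and of the local background, from ImaGene 5.5, with no subtraction. The deposited files also hold a shape regularity score and marks for poor spots, which were used to check single spots. A second deposited table holds log2 values that the authors had processed, whose differences between arrays equal those of the log2 intensities (slope 1.00, r 1.00), with column medians from -0.157 to 0.0598 and a centring of probes on an unstated set of arrays. Groups were taken from the donor line in the labels. From log2 intensities the mean of the 10184 cDNA probes of the array was subtracted, leaving out 30 controls and 154 unnamed spots. Pairs of groups were fitted with limma 3.58.1 in R 4.3.3 on their 20 arrays (lmFit, eBayes). SMVar, the program of the study's methods, could not be used. Relations were tested with 100000 permutations within groups in Python 3.11.15 (numpy 2.4.6, scipy 1.17.1, pandas 2.3.3), and figures were drawn with matplotlib 3.10.9. Both procedures were tested on simulated data. The genes named are EED, ASF1A, the other genes of the QPCR primer list with a spot, and the 3 probes most like each member. WNT5B was singled out, and the probes near EED examined, after values were seen. The members and lists were chosen with earlier results of these data known. Alternatives were the authors' table, centring on the array median, quantile normalization, normexp correction of the background (offset 50), all 4 groups in one model, array weights, session as a block, leaving out session 3, the dimmest 25% of probes, or each array. Conceptuses of one group may share a recipient, so p-values measure the spread between these samples only.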

Additional observations from a re-analysis of the deposited data

Results flagged for a closer look

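EED was far below the rest of its group on 2 arrays. In IVP the lowest array, BF190, was at -0.41, and its gap to the next array was 0.722 of the range of the group. In SCNT Med the lowest array, BC192, was at -0.19, and its gap was 0.502 of the range. Both exceed the 95% critical value of Dixon's test for 10 samples, which chance exceeds in about 1 group in 20, and 8 groups of values were looked at. BC245 of SCNT High, at -0.58, had a gap of 0.433 of the range and did not exceed it.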

How the results depend on the processing

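No paired analysis was possible because the replicate numbers follow accession order and do not tie conceptuses of different groups. The directions of EED and ASF1A in SCNT High minus IVP, and of EED in SCNT High minus SCNT Med and minus SCNT Low, held in each alternative and with each array left out. EED in SCNT Low minus IVP turned to 0.089 with the session as a block. EED in SCNT Med minus SCNT Low turned to -0.031 with array weights, to -0.12 with the session as a block and to -0.077 with CR552703 as a covariate, an alternative added after the data were examined. ASF1A in SCNT High minus SCNT Low turned to -0.0038 without session 3. 1 probe passed in SCNT Med against SCNT Low with all groups in one model and with array weights, where the reported count was 0.
With 1 array left out at a time, EED in SCNT Med minus IVP ran from -0.38 to 0.20, in SCNT Low minus IVP from -0.45 to -0.02 and in SCNT Med minus SCNT Low from -0.10 to 0.35. The sign of the first turned without BC192 or BF176, and that of the third without BC107, BC122, BC30, BC255 or BC256. ASF1A in SCNT High minus SCNT Low ran from -0.0077, without BC202, to 0.27. The r of EED and ASF1A ran from 0.12 without BC30 to 0.34 without BC122, the last with a permutation p of 0.045. The number of arrays limits what could be detected, as each interval of a tested difference is wider than 1 log2 unit.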
